A study of Mus musculus with 4 samples.

Results

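The response of mouse tumour line 365 to Smarcb1 is described here from 2 of the study's 4 arrays, gene by gene, as the log2 signal with Smarcb1 minus the log2 signal with empty vector. Line 365 is a cancer cell line from a Smarcb1-deficient soft tissue tumour (labelled MRT) of a mouse that was heterozygous for Smarcb1 and p53-/-, on the C57BL6/SV129J background, and line 167 is of the same kind. Each line received pMIG, a retroviral vector, either with Smarcb1 or empty, and total RNA was taken 3 days after infection. All 4 groups therefore lack p53, each group is 1 array, and each line is a single line from such a mouse. The sources used here do not say whether infected cells were selected before RNA was taken. With 1 array a side there is no replicate and no test, so every value below describes these arrays, and the difference between the lines was not tested either.

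The SWI/SNF complexes, which move nucleosomes, contain Smarcb1 as a core subunit, and loss of it defines malignant rhabdoid tumours. Ribosome assembly is a large part of the cost of growth. In the nucleolus RNA polymerase I copies the rRNA precursor, small nucleolar ribonucleoproteins (snoRNPs) guide its modification, the small subunit processome and the large subunit assembly factors fold and cut it, and the nuclear exosome trims it. MYC with its partner MAX binds the E-box CACGTG and is known to drive many of these genes.

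The 2 arrays of line 365 came out as labelled for the vector. Smarcb1 gave 6.01 with empty vector and 9.61 with Smarcb1, a 12.1-fold difference, and the empty-vector value lies above the low-value limit of log2 4.27. That limit is the 30th percentile of the mean signal over the 4 arrays among 19938 genes, and 13956 genes at or above it were kept. Marker genes of other cell types were mostly low: of 14 leukocyte markers with a probe set 4 were kept, with medians of 5.0 with empty vector and 5.12 with Smarcb1, and of 15 epithelial markers 10 were kept, with medians of 5.04 and 4.94. Single markers stood out of those medians: Cd68, a lysosomal protein gene of macrophages, gave 9.95 and 8.18 in line 365 and 9.32 and 8.69 in line 167, and the keratin gene Krt19 gave 5.59 and 8.27, against 4.67 and 6.52. What part such markers have in the results was not tested. The mesenchymal intermediate filament gene Vim stood at 13.27 and 13.36. It is 1 of 19 fibroblast and mesenchyme markers, of which 17 were kept. Their medians were lower, 6.41 and 7.04 in line 365, against 7.90 and 8.90 in line 167. The endothelial cadherin gene Cdh5 stood at 9.06 and 8.29 and the endothelial adhesion gene Esam at 8.17 and 8.48 in line 365, against 3.78 and 3.64 for Cdh5 in line 167, while other endothelial markers were low (Tie1 at 4.47 and 4.46, Kdr at 4.56 and 4.80). In bulk samples such as these, fewer cells that make a transcript and less transcript per cell cannot be told apart.

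With Smarcb1, 397 genes were at least 2-fold higher in line 365 (2.84% of the genes kept) and 163 were at least 2-fold lower (1.17%). Large differences were mostly increases, with 90 genes at least 4-fold higher against 14 lower and 27 at least 8-fold higher against 1 lower. Over all genes the quartiles of the difference, Smarcb1 minus empty vector, were -0.20 and 0.19 (log2), with a median of -0.01. Of the higher genes 186 (46.9%) were also at least 2-fold higher in line 167 (beside 3.4% of all genes), whereas 26 of the lower genes (16.0%) were also at least 2-fold lower there (beside 1.49%). The increases of line 365 were thus met in line 167 more often than its decreases, as a description of these 4 arrays.

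Some of the largest differences in line 365 were shared with line 167. Mmp3, which encodes the matrix protease stromelysin, gave 4.54 with empty vector and 9.98 with Smarcb1 in line 365, 43.7-fold higher, and 3.93 and 7.66 in line 167. Timp3, an inhibitor of such proteases, gave 7.36 and 11.42, against 8.86 and 11.07. The semaphorin receptor gene Nrp1 was 15.1-fold higher and the ephrin ligand gene Efnb2 12.1-fold higher in line 365, with differences in line 167 of 3.77 and 3.74 (log2), about as large as in line 365. Among the lower genes, the iron exporter gene Slc40a1 was lower by 2.81 in line 365, where it ended below the low-value limit, and by 2.01 in line 167.

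The genes that line 365 differed by itself were taken as those at least 2-fold changed there with a change in line 167 of under 0.5 (log2) in the same direction. They numbered 137 among the higher genes (0.982% of all genes kept, and 34.5% of those at least 2-fold higher) and 93 among the lower genes (0.666% of all, and 57.1% of those at least 2-fold lower). Of these, 8 higher genes started from an empty-vector signal below the low-value limit and 6 lower genes ended below it with Smarcb1, where the size of a change is uncertain.

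**Figure D1:**
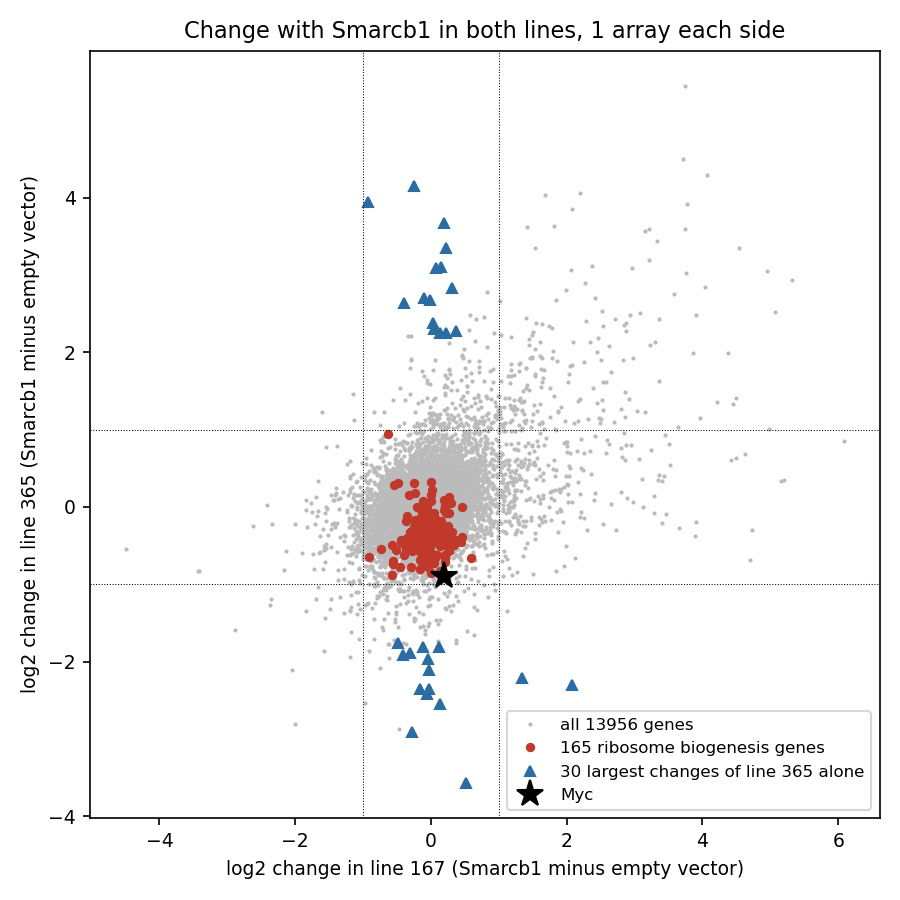
Each point is a gene, with its log2 change in line 167 on the horizontal axis and in line 365 on the vertical axis, 1 array on each side of a difference, and dotted lines at 2-fold. Grey points are all 13956 genes, red points 165 ribosome biogenesis genes, triangles the 30 largest changes of line 365 alone and the star is Myc, which lies at 0.20 for line 167.

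Prl2c5, a proliferin gene of the prolactin family, had the largest increase that line 167 did not share. Its signal was 6.12 with empty vector and 10.28 with Smarcb1 in line 365, 17.8-fold higher, and 3.34 and 3.08 in line 167, below the low-value limit. Proliferin genes are near-identical copies, so which of them the probes measured is uncertain. Havcr2, which encodes the immune checkpoint receptor TIM-3, went from 4.37 to 8.03 in line 365 and stood at 4.41 and 4.60 in line 167. On the empty-vector arrays both lines were thus close to the low-value limit for Havcr2, and 1 of the 4 arrays stood clear of it.

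Bace2, which encodes an aspartyl protease related to beta-secretase, behaved otherwise. It went from 4.94 to 8.88 in line 365, 15.4-fold higher, while line 167 was already at 9.64 with empty vector and went to 8.71 with Smarcb1. The late endosomal GTPase gene Rab7b (3.94 and 6.65 in line 365, 8.07 and 7.96 in line 167), the pyrophosphate transport gene Ank (6.88 and 9.12, against 10.68 and 10.81) and Hspg2, which encodes the basement membrane proteoglycan perlecan (6.17 and 8.47, against 9.28 and 9.33), followed the same order. For these 4 genes the line 365 empty-vector array was the lowest of the 4.

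A further set stood low in line 365 with empty vector, and Tm6sf1 and H60b of this set stood higher in line 167. The urea transporter gene Slc14a1 gave 4.80 and 7.89 in line 365 and 4.80 and 4.95 in line 167. Tm6sf1 gave 5.09 and 8.18, against 6.09 and 6.17. Adcyap1r1, the receptor for the neuropeptide PACAP, went from 5.88 to 8.55, 6.37-fold higher, with 4.98 and 4.97 in line 167. Clca3a2 (4.18 and 7.53) and H60b, a ligand of the killer cell receptor NKG2D (4.29 and 7.11), belong to families of close copies, and probes may not separate those. In line 167 H60b gave 6.17 and 6.48, so its line 365 empty-vector array was the lowest of the 4. The remaining large increases were the cyclase-associated actin regulator gene Cap2 (6.24-fold), the caveolar coat gene Cavin2 (5.2-fold), the scaffold gene Slc9a3r2 (4.85-fold) and the ubiquitin ligase subunit gene Fbxo2 (4.76-fold).

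Decreases of line 365 alone were led by secreted factors. Sfrp4, a soluble WNT antagonist, went from 8.75 with empty vector to 5.18 with Smarcb1, 11.9-fold lower, and stood at 3.58 and 4.11 in line 167. Fgf15, a fibroblast growth factor of the endocrine group, went from 9.02 to 6.10, 7.55-fold lower, with 5.63 and 5.35 in line 167. The interferon-induced chemokine gene Cxcl10 went from 9.45 to 6.90, 5.83-fold lower, with 6.25 and 6.38 in line 167. In each of these the line 365 empty-vector array was the highest of the 4.

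The same order held for the Hedgehog ligand gene Dhh (7.92 and 6.11 in line 365, 4.46 and 4.58 in line 167), for Aldh1a3, which makes retinoic acid (10.66 and 8.85, against 6.40 and 6.29), for the matrix proteoglycan gene Optc (7.62 and 5.26, against 4.47 and 4.30) and for C3ar1, a receptor for a complement fragment (8.33 and 6.57, against 3.94 and 3.46). Fam163a (9.0 and 6.58), the atypical cyclin gene Ccno (7.71 and 5.36), Paqr9 (6.76 and 4.65) and the small GTPase gene Rab15 (7.23 and 5.32) were 5.37-fold, 5.10-fold, 4.31-fold and 3.77-fold lower in line 365. Apba2 and the deubiquitinase gene Usp44 ended at 3.94 and 4.15 with Smarcb1, below the low-value limit.

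Collagen and matrix-modifying genes were among those that parted the lines most. P3h2, a collagen prolyl hydroxylase gene, gave 10.60 and 8.30 in line 365, against 5.15 and 7.22 in line 167. The endothelial proteoglycan gene Esm1 gave 8.02 and 5.8, against 3.70 and 5.04. Where both lines went up, Pcolce, an enhancer of procollagen processing, was 1.01 higher (log2) in line 365 and 4.98 higher in line 167, and the proteoglycan gene Bgn 1.15 and 3.97 higher.

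**Figure D2:**
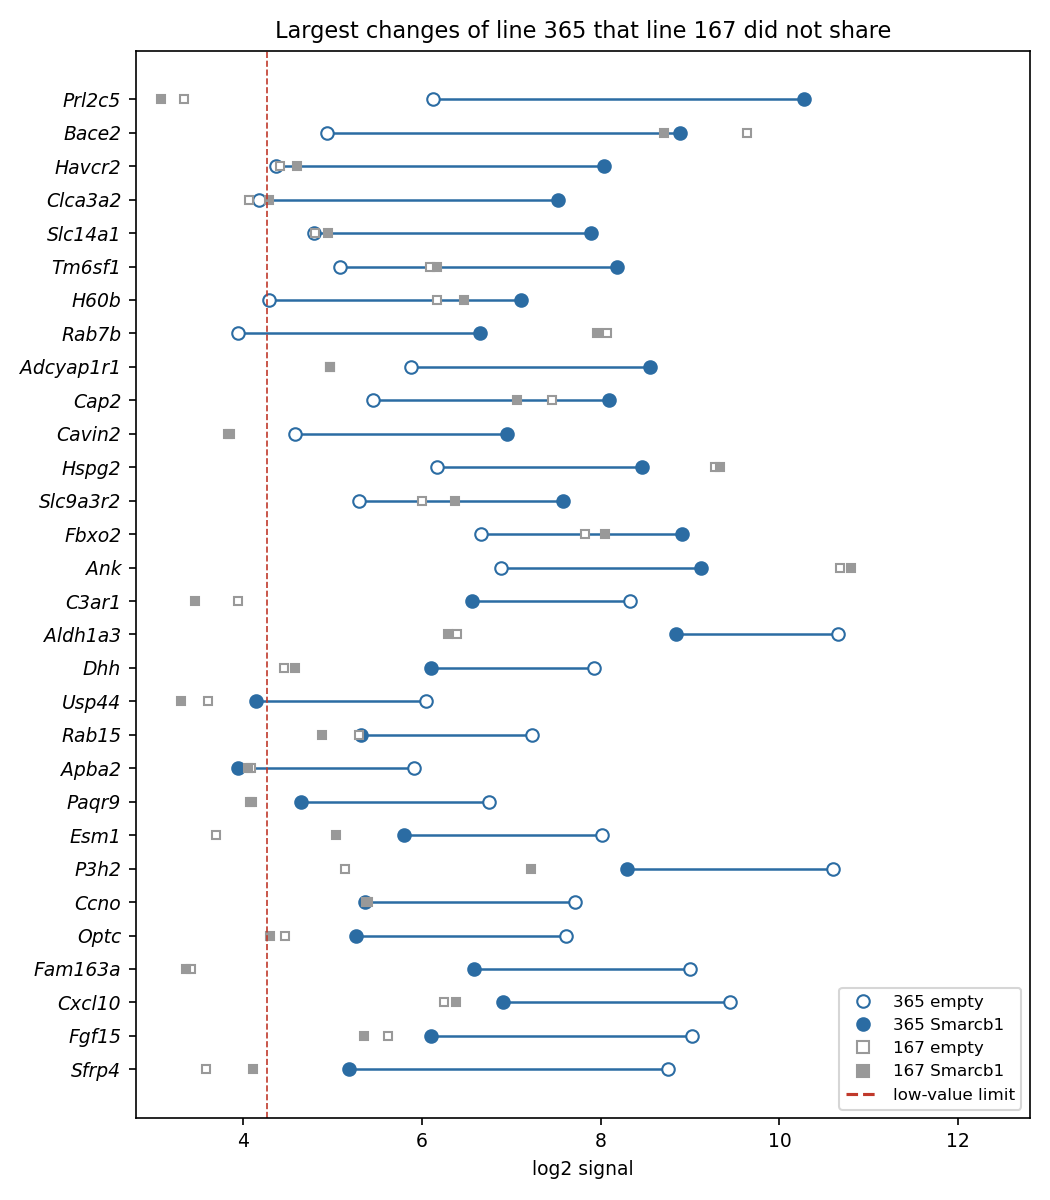
Each row is a gene and the horizontal axis is its log2 signal on each of the 4 arrays, open symbols for empty vector and filled symbols for Smarcb1, circles for line 365 and squares for line 167, with the low-value limit of 4.27 dashed. The rows were chosen as changed in line 365 and not so in the same direction in line 167, so the spacing below follows from the choice. Circles lie far apart in all 30 rows, and squares lie close together in most. P3h2, Esm1 and Bace2 are exceptions whose squares lie apart in the other order.

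Ribosome biogenesis genes were lower in line 365 with Smarcb1 in small steps, gene after gene. The lists held 169 genes over 5 steps, of which 165 had a probe set with 1 gene symbol, and all 165 passed the limit on low values. Because the changes were small, genes were counted at 1.2-fold, a log2 change of 0.26. At least 1.2-fold lower were 105 of 165 (63.6%), beside 18.7% of all genes kept, and 5 were at least 1.2-fold higher, beside 18.6% of all. At 1.5-fold the counts were 27 lower (16.4%, beside 4.75% of all genes) and 1 higher (beside 6.49%), and no member reached 2-fold. The median change was -0.38, beside -0.01 over all genes, and 146 of 165 lay below 0, beside 50.9% of all.

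Line 167 did not show these numbers. There 32 members were at least 1.2-fold lower, beside 26.1% of all genes, and 13 were higher, beside 17.1%, with a median of -0.06, the same as that of all genes. At 1.5-fold 3 were lower (beside 7.8% of all genes) and 1 higher (beside 6.93%) in line 167. Lower in line 365 and within 1.2-fold in line 167 were 71 of 165 (43.0%, beside 8.71% of all genes), and 26 were lower in both lines (15.8%, beside 8.18%). The change in line 365 lay below that in line 167 for 139 members (84.2%, beside 44.1% of all genes). These are counts over genes that share the same arrays, and genes are not replicates.

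The level before Smarcb1 also set line 365 apart. The line 365 empty-vector array was the highest of the 4 for 135 of 165 members (81.8%, beside 26.0% of all genes). The median gap between line 365 and line 167 was 0.60 with empty vector and 0.30 with Smarcb1, against -0.03 and 0.00 over all genes. The gap with empty vector and the change in line 365 both use the same line 365 array, so they are not independent of each other.

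**Figure D3:**
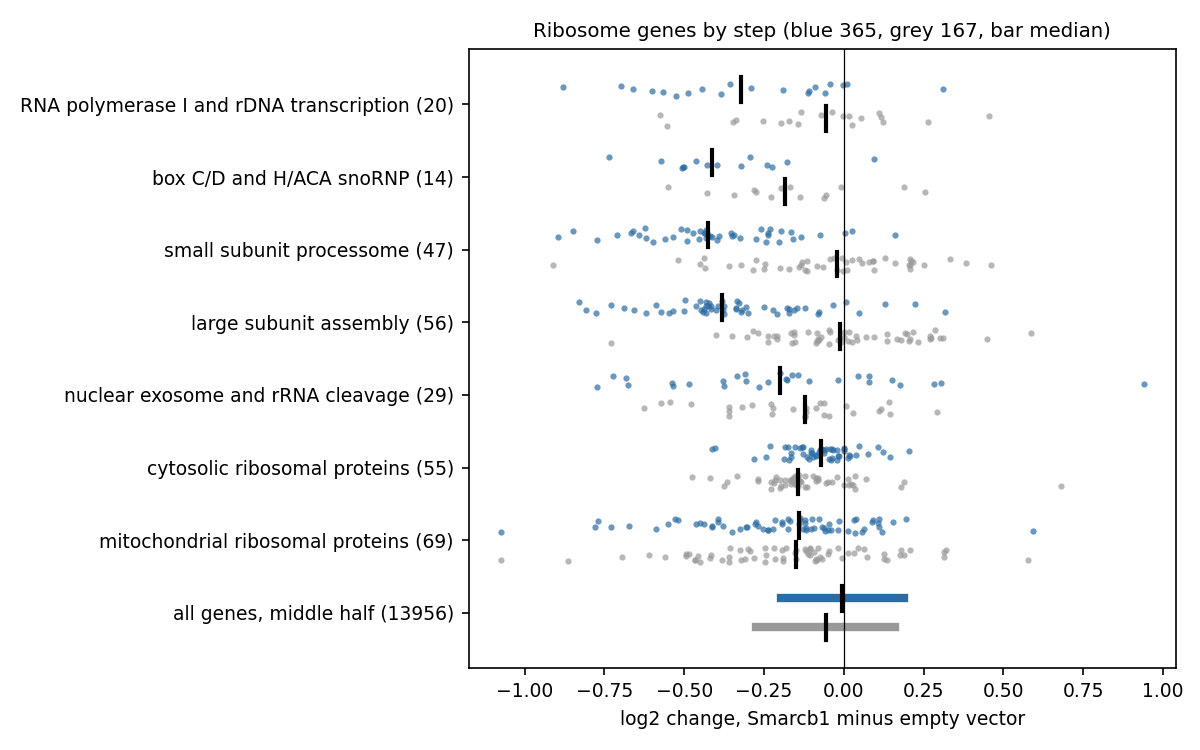
Each point is a gene placed by its log2 change with Smarcb1, blue for line 365 and grey for line 167, in rows for 5 steps of ribosome assembly and 2 classes of ribosomal proteins, with a black bar at the median. The blue medians of the small subunit processome (-0.43) and large subunit assembly (-0.38) lie left of the grey ones (-0.02 and -0.01), and the bottom row spans the quartiles of all genes.

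Promoter sequences are shown for 6 of these genes, because the E-box can be read in them directly: Imp4 as the member of largest decrease with an E-box in the stretch shown, Nop2 as one with the E-box before the gene start, and Nle1, Sdad1, Tsr1 and Wdr43 as those of largest decrease with an E-box after the start and a change of less than 1.2-fold in line 167. Each runs 5′ to 3′ on the gene's strand from 150 bases before the RefSeq gene start to 30 bases from the start on, and the capitals mark CACGTG. The coordinates are of build GRCm38.p6, and the sequences are from RefSeq: Imp4 at chr1:34439679-34439858, plus strand, Nop2 at chr6:125131733-125131912, plus strand, Nle1 at chr11:82908366-82908545, minus strand, Sdad1 at chr5:92309995-92310174, minus strand, Tsr1 at chr11:74897930-74898109, plus strand and Wdr43 at chr17:71616065-71616244, plus strand.
Imp4: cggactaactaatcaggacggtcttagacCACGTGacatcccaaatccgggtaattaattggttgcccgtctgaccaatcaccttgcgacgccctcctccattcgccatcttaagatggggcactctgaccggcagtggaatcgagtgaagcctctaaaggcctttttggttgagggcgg
Nop2: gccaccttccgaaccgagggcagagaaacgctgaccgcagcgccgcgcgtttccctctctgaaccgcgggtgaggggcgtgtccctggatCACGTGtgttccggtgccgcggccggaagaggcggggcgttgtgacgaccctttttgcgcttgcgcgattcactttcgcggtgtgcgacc
Nle1: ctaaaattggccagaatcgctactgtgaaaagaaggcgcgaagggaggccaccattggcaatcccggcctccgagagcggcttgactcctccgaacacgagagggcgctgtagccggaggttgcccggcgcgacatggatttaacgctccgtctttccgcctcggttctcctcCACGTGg
Sdad1: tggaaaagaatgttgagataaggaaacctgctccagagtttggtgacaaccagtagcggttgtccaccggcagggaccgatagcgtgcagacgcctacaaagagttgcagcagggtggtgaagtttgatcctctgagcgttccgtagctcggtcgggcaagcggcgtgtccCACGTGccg
Tsr1: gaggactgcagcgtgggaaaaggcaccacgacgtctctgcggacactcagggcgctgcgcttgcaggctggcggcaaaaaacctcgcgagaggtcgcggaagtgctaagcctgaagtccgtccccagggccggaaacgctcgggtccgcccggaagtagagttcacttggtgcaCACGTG
Wdr43: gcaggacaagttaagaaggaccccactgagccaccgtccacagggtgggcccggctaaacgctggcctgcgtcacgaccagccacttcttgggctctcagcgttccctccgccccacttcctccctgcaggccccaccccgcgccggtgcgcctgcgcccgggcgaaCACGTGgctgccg

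The E-box CACGTG, which reads the same on both strands, was searched in 300 bases around the start (250 before and 50 after) for genes with a promoter in the RefSeq table. It was present in 27 of 139 ribosome biogenesis genes (19.4%), beside 11.3% of the 11053 genes kept that have a promoter there. The steps differed: it was present in 11 of 39 small subunit processome genes (28.2%) and 11 of 47 large subunit genes (23.4%). The other steps had it in 2 of 18 RNA polymerase I genes (11.1%), 3 of 24 exosome and cleavage genes (12.5%) and 0 of 12 snoRNP genes. Among members at least 1.2-fold lower in line 365 it was present in 22 of 94 (23.4%), and among the rest in 5 of 45 (11.1%). Between all members and all genes kept, the difference lay in the 50 bases after the start. Those held the E-box in 18 of 139 members (12.9%), beside 1.73% of all, whereas the 250 bases before the start held it in 12 (8.63%), beside 9.58%. The lower members and the rest differed in both stretches, with the E-box in 10.6% and 4.44% before the start and in 16.0% and 6.67% after the start. All genes at least 1.2-fold lower in line 365 had it in 13.4% and all at least 1.2-fold higher in 10.3%. In the whole table of 32851 promoters, 7.15% held it. A match is a stretch of letters and does not show that MYC binds there.

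RNA polymerase I and its factors came first in the order of assembly. In line 365 the shares of all genes kept that were at least 1.2-fold lower and higher, 18.7% and 18.6%, stand beside this list and those that follow. Of 20 genes 11 were at least 1.2-fold lower in line 365 (55.0%) and 1 higher, with a median of -0.32, against -0.05 in line 167. In line 167 4 were lower (20.0%, beside 26.1% of all genes) and 1 higher. The second-largest polymerase subunit gene Polr1b gave 9.25 with empty vector and 8.59 with Smarcb1 in line 365, and 8.35 and 8.40 in line 167. Smaller subunits were lower as well: Znrd1 (8.26 and 7.37), Cd3eap (8.35 and 7.65) and Twistnb (7.53 and 6.96), of which Znrd1 and Cd3eap were also lower in line 167, by 0.58 and 0.55. Nolc1, a nucleolar phosphoprotein gene, gave 9.01 and 8.41 against 8.41 and 8.41. The initiation factor gene Rrn3 differed by -0.29 and the promoter factor gene Ubtf by -0.11. Subunits and factors overlapped, since the subunit gene Polr1c differed by -0.003 and the factor gene Tcof1 by -0.53.

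Genes of the snoRNPs followed. Of 14 genes 10 were at least 1.2-fold lower (71.4%) and 0 higher, with a median of -0.41, against -0.18 in line 167. In line 167 5 were lower (35.7%, beside 26.1% of all genes) and 0 higher. All 14 lay lower in line 365's change than in line 167's. The H/ACA assembly factor gene Shq1 gave 7.54 and 6.80 in line 365, against 7.03 and 6.47 in line 167. Nop56, a core box C/D protein gene, gave 11.75 and 11.24, against 10.99 and 10.98. Fbl, which encodes the methyltransferase fibrillarin, differed by -0.43 and the H/ACA pseudouridine synthase gene Dkc1 by -0.22. Shq1 was thus lower in both lines and Nop56 in line 365.

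The small subunit processome had the lowest median of the steps, -0.43 in line 365, against -0.02 in line 167. Of 47 genes 33 were at least 1.2-fold lower (70.2%) and 0 higher in line 365. In line 167 9 were lower (19.1%, beside 26.1% of all genes) and 3 higher (6.38%, beside 17.1%). Pwp2, a scaffold protein gene of the processome, gave 8.63 with empty vector and 7.74 with Smarcb1 in line 365, 1.86-fold lower, and 6.70 and 6.86 in line 167. Rrp12, needed for export of the subunits, gave 8.72 and 7.87, against 7.14 and 7.15. Heatr1, which links the processome to rDNA transcription, gave 9.85 and 9.19, against 8.03 and 8.24. Line 365 with Smarcb1 remained above both line 167 arrays for these 3 genes. Imp4 (-0.77 in line 365 and -0.45 in line 167), Lyar (-0.71 and 0.21) and Pdcd11 (-0.67 and -0.04) came next.

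Large subunit factors were alike. Of 56 genes 39 were at least 1.2-fold lower (69.6%) and 1 higher in line 365, with a median of -0.38. In line 167 6 were lower (10.7%, beside 26.1% of all genes) and 8 higher (14.3%, beside 17.1%), with a median of -0.01. The pre-ribosome factor gene Urb1 gave 8.24 and 7.4, against 6.76 and 6.90 in line 167. Rrp15, which acts on the pre-60S particle, gave 9.66 and 8.88, against 8.65 and 8.60, and Nip7 gave 8.64 and 7.91, against 7.73 and 7.77. The PeBoW complex genes Pes1, Bop1 and Wdr12, which act in cutting out the internal spacer, differed by -0.34, -0.42 and -0.55, and of them Wdr12 was lower in line 167 too (-0.73). The abundant nucleolar protein genes Npm1 and Ncl differed by -0.18 and -0.21, under the 1.2-fold limit. The 1 higher gene was Gnl3l, at 0.32.

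The nuclear exosome and rRNA cleavage list was the mixed one. Of 29 genes 13 were at least 1.2-fold lower (44.8%) and 3 higher (10.3%) in line 365, with a median of -0.20, against -0.12 in line 167. In line 167 9 were lower (31.0%, beside 26.1% of all genes) and 1 higher. The exosome subunit gene Exosc2 gave 9.67 and 8.89 in line 365 and 8.90 and 8.61 in line 167. Rrp8, an rRNA methyltransferase gene, gave 9.58 and 8.86, against 8.79 and 8.70. Pop1, the large protein of RNase P and RNase MRP, differed by -0.67. The other protein genes of these enzymes went both ways. Rpp38 (-0.49), Rpp40 (-0.38) and Pop5 (-0.31) were lower past 1.2-fold, and Rpp25 (0.94, with 7.42 and 8.36), Rpp21 (0.30) and Pop4 (0.28) were higher, while Rpp30 (-0.24), Rpp14 (-0.18) and Pop7 (0.04) stayed within it. The fifth member at least 1.2-fold higher was Taf1b of the RNA polymerase I list, at 0.31.

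**Figure D4:**
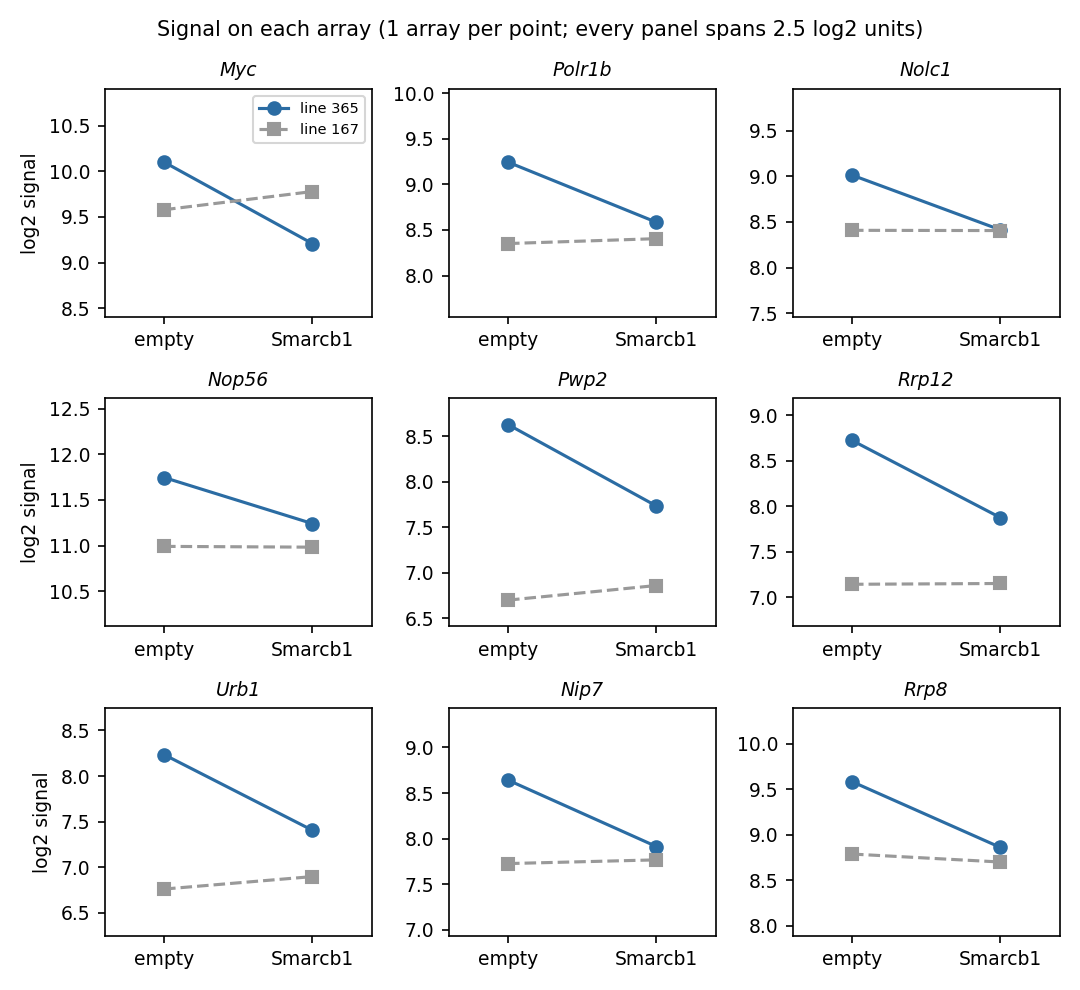
Log2 signal of Myc and 8 ribosome biogenesis genes on each array, with empty vector on the left and Smarcb1 on the right of a panel, circles for line 365 and squares for line 167, and every panel spanning the same range. The 8 genes were picked by hand among the larger decreases of line 365, so their lower values with Smarcb1 follow from the choice. Znrd1 (-0.88 in line 365 and -0.58 in line 167) and Shq1 (-0.74 and -0.55), lower in both lines, were left out. So was Rpp25, higher in line 365 (0.94). Line 365 is lower with Smarcb1 in all 9 panels and starts above line 167 in each. With Smarcb1 line 365 lies below line 167 for Myc (9.21 against 9.78) and at the same 8.41 for Nolc1.

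Myc itself was lower in line 365. Its signal was 10.10 with empty vector and 9.21 with Smarcb1, 1.86-fold lower, and 9.58 and 9.78 in line 167. Line 365 thus held both the highest and the lowest of the 4 Myc values. Of the 14 genes of the MYC network 2 were at least 1.2-fold lower in line 365 (14.3%, beside 18.7% of all genes) and 0 higher, with a median of 0.04. The 2 lower genes were Myc and Mlx (-0.36), a MAX-like partner gene. Max differed by -0.23, the related Mycn by 0.08 and Mycl by 0.17. The genes for the MXD repressors, which compete with MYC for MAX, differed by 0.19 (Mxd1), 0.23 (Mxi1), 0.22 (Mxd3) and 0.16 (Mxd4) in line 365, all below the 1.2-fold limit, and Mnt by -0.01. Whether the Myc value bears on the ribosome biogenesis values was not tested.

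Ribosomal proteins were separate from their assembly factors. Of 55 cytosolic ribosomal protein genes 3 were at least 1.2-fold lower in line 365 (5.45%, beside 18.7% of all genes) and 0 higher, with a median of -0.07, against -0.14 in line 167. Such genes have many processed copies, and 24 of 79 listed had no probe set with 1 gene symbol. Of 69 mitochondrial ribosomal protein genes 24 were lower (34.8%, beside 18.7% of all genes) and 1 higher in line 365, and 24 were lower (beside 26.1%) and 4 higher in line 167, with medians of -0.14 and -0.15. In line 365 Mrps27 was the 1 member past 2-fold, at 9.47 and 8.39 in line 365 and 8.21 and 7.99 in line 167.

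Nucleotide synthesis genes were the growth list nearest to ribosome assembly. Of 33 genes 20 were at least 1.2-fold lower (60.6%, beside 18.7% of all genes) and 1 higher in line 365, with a median of -0.35. In line 167 9 were lower (27.3%, near the 26.1% of all genes) and 2 higher, with a median of -0.20. The folate cycle genes Shmt1 (9.21 and 8.29) and Mthfd2 (9.02 and 8.30) and the pyrimidine gene Umps (10.02 and 9.36) were lower in line 365, of which Shmt1 was lower by 0.82 in line 167 also. Ctps, which makes CTP, differed by -0.51 in line 365 and by 0.71 in line 167. The polyamine synthesis gene Srm gave 10.85 and 10.22 in line 365 and 9.98 and 10.0 in line 167. Its list went both ways in line 365, with a median of -0.09. Of 6 genes kept 2 were at least 1.2-fold lower (33.3%, beside 18.7% of all genes) and 2 higher (33.3%, beside 18.6%), Oaz2 (0.46) and Smox (0.43).

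Translation and transport lists differed among themselves. Cytosolic aminoacyl-tRNA synthetases had 10 of 20 at least 1.2-fold lower (50.0%, beside 18.7% of all genes) and 0 higher in line 365 (median -0.26, and -0.14 in line 167). Nuclear import and export genes had 13 of 29 lower (44.8%) and 0 higher (median -0.21, and -0.14 in line 167), led by the exportin gene Xpo4, with 8.97 and 8.17 in line 365 and 8.15 and 8.10 in line 167. Translation factors had 8 of 31 lower (25.8%), near the share of all genes, and chaperonins (3 of 22, 13.6%) and nuclear-encoded oxidative phosphorylation genes (7 of 50, 14.0%) lay below it, with medians of -0.10, -0.11 and -0.10. The amino acid and unfolded protein stress list had 10 of 25 lower (40.0%) and 0 higher (median -0.17, and -0.03 in line 167), with the mTORC1 inhibitor gene Ddit4 at -0.98 and -0.79.

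Immediate early genes answer growth factor signals within minutes. Of 36 genes 17 were at least 1.2-fold lower in line 365 (47.2%, beside 18.7% of all genes) and 6 higher (16.7%, near the 18.6% of all), with a median of -0.25. In line 167 9 were lower (25%, near the 26.1% of all) and 16 higher (44.4%, beside 17.1%), with a median of 0.12. Btg2, an antiproliferative gene, gave 9.16 with empty vector and 6.63 with Smarcb1 in line 365, 5.78-fold lower, and 8.83 and 7.86 in line 167. Fosb gave 7.91 and 6.43, against 7.14 and 6.62, and Gadd45b 10.13 and 8.77, against 10.03 and 9.52. These 3 genes were lower in both lines and by more in line 365. Ier3 (-0.70 and 1.05) and Egr2 (-0.90 and 1.06) parted the lines. Ccn2, a target of the YAP coactivator, differed by 0.07 in line 365 and by 2.98 in line 167.

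The cell cycle lists differed from each other. Of 37 G2/M genes 5 were at least 1.2-fold lower (13.5%) and 4 higher (10.8%) in line 365, both under the shares of all genes (18.7% and 18.6%), with a median of 0.12. In line 167 22 were lower (59.5%, beside 26.1%) and 1 higher, with a median of -0.32. The proliferation marker gene Mki67 gave 9.44 and 9.64 in line 365 and 9.73 and 9.21 in line 167. Of 40 G1/S and replication genes 15 were lower (37.5%) and 1 higher in line 365 (median -0.20), and 26 were lower (65.0%) and 0 higher in line 167 (median -0.39). Among CDK inhibitors and pocket proteins, Cdkn2c, which encodes the CDK4/6 inhibitor p18, gave 7.41 and 8.51 in line 365, 2.13-fold higher, and 7.77 and 7.97 in line 167. Cdkn1b, which encodes p27, gave 8.23 and 8.89, against 9.20 and 9.19. The cyclin gene Ccnd2 differed by -0.81 and -0.57. Line 365 was thus higher for these 2 inhibitor genes while its G2/M median was above 0.

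Cholesterol and fatty acid synthesis genes were higher in line 365. Of 27 genes 12 were at least 1.2-fold higher (44.4%, beside 18.6% of all genes) and 3 lower, with a median of 0.25. In line 167 4 were higher (14.8%) and 7 lower (25.9%), near the 17.1% and 26.1% of all genes, with a median of -0.00. The squalene synthase gene Fdft1 gave 8.61 and 9.53 in line 365 and 9.24 and 9.79 in line 167. Insig1, the sterol-sensing regulator gene, gave 9.04 and 9.82, against 9.27 and 8.98, and the desaturase gene Scd2 10.76 and 11.53, against 11.62 and 11.42. Members of one pathway still differed, since Dhcr7, the last enzyme of cholesterol synthesis, differed by -0.68 and Sqle by -0.23.

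Matrix genes set the lines apart in the other sense, since many differed little in line 365 while a part was much higher. Of 36 extracellular matrix genes 11 were at least 1.2-fold higher (30.6%, beside 18.6% of all genes) and 6 lower (16.7%) in line 365, with a median of 0.06, and 30 were higher in line 167 (83.3%, beside 17.1%), with a median of 1.12. At least 2-fold higher were 8 in line 365 (22.2%, beside 2.84% of all genes), with 1 lower, and 18 in line 167 (50.0%, beside 3.4%). Fn1, Tnc and Fbln2 were 5.59-fold, 5.57-fold and 4.97-fold higher in line 365 and also higher in line 167. Within 1.2-fold in line 365 and higher in line 167 were 16 of 36 (44.4%, beside 8.25% of all genes). Col1a1, the main fibrillar collagen gene, gave 6.38 and 6.41 in line 365 and 7.91 and 10.56 in line 167. The crosslinking enzyme gene Lox gave 3.81 and 3.85 in line 365, below the low-value limit, and 10.97 and 11.93 in line 167. The matricellular gene Thbs1 gave 10.21 and 10.29, against 9.83 and 12.24.

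The matrix genes at least 1.2-fold higher in line 365 were mostly higher in line 167 too (10 of 11), as were 30 of all 36 matrix genes (83.3%). Higher in both lines were 10 of 36 (27.8%), beside 6.99% of all genes. The basement membrane linker gene Nid1 gave 8.34 and 11.09 in line 365 and 5.83 and 9.41 in line 167. Lamb1, a laminin chain gene, gave 8.07 and 9.27 in line 365 and 6.91 and 7.0 in line 167. Among adhesion genes, Cdh2, which encodes N-cadherin, gave 8.88 and 10.66 in line 365, 3.43-fold higher, and 8.63 and 8.90 in line 167, and the integrin gene Itgb3 gave 5.95 and 8.62, against 5.21 and 6.23. At the 2-fold limit Nid1 and Itgb3 were higher in both lines, and Lamb1 and Cdh2 in line 365 only. In line 167 Cdh2 was 1.21-fold higher.

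**Figure D5:**
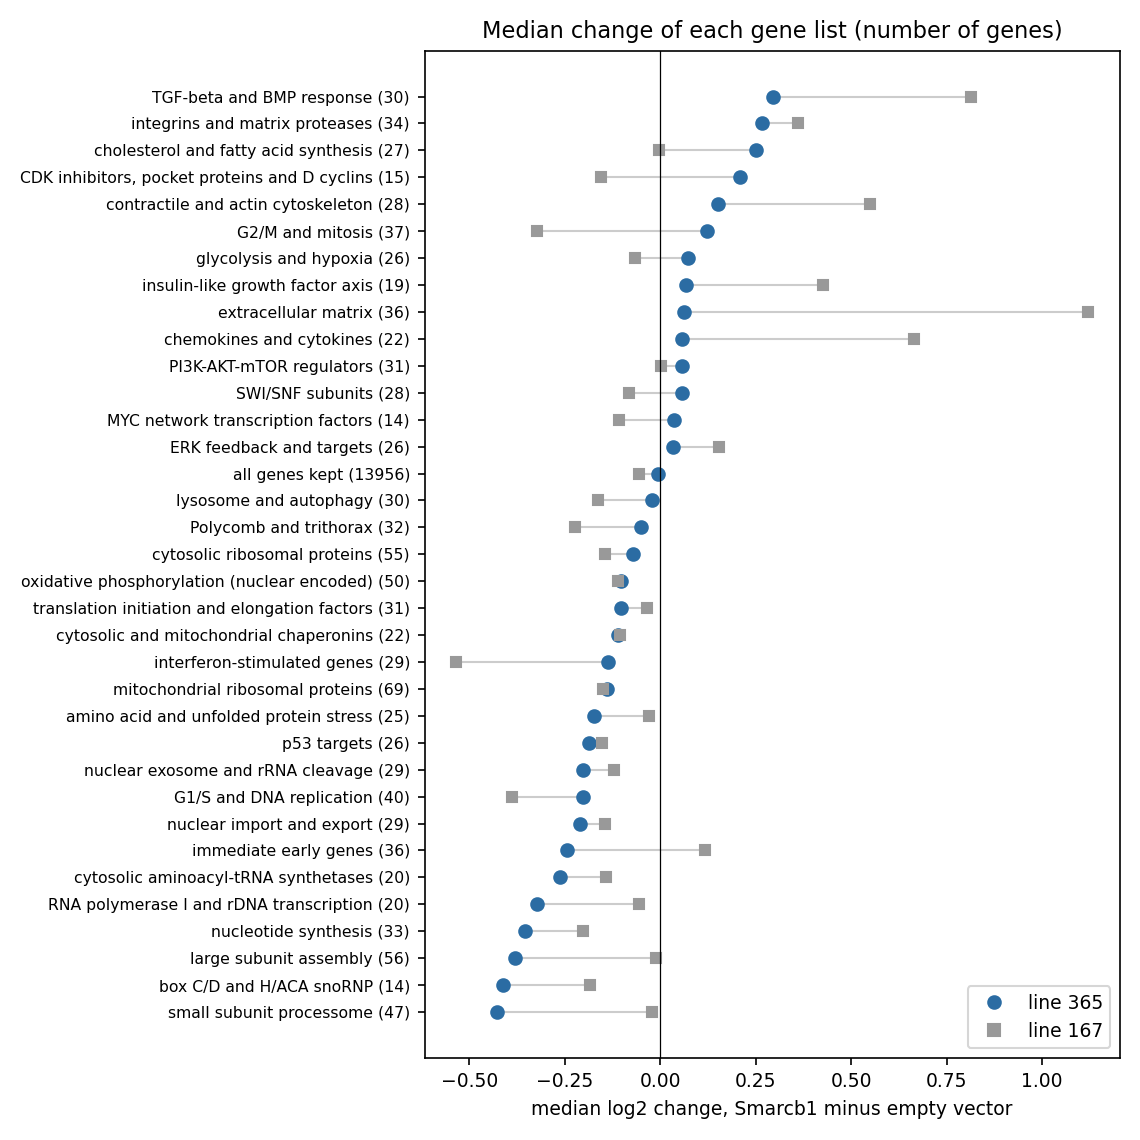
Each row is a gene list of 10 or more genes, placed by its median log2 change with Smarcb1, circles for line 365 and squares for line 167, in the order of the line 365 medians. Nucleotide synthesis and the steps of ribosome assembly fill the bottom rows for line 365, except the nuclear exosome and rRNA cleavage step (-0.20), which lies higher. The extracellular matrix row has the widest gap, with 0.06 for line 365 and 1.12 for line 167.

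Interferon and signalling lists completed the account of line 365. Interferon-stimulated genes had 10 of 29 at least 1.2-fold lower (34.5%, beside 18.7% of all genes) and 3 higher (median -0.14), against 21 lower in line 167 (72.4%, beside 26.1%, with a median of -0.53). TGF-beta and BMP response genes had 16 of 30 higher (53.3%, beside 18.6% of all genes) and 7 lower (23.3%), with medians of 0.30 and, in line 167, 0.81, and with the latent TGF-beta binding protein genes Ltbp1 at 1.88 and Ltbp2 at -1.46 in line 365. Insulin-like growth factor genes had 5 of 19 higher (26.3%) and 1 lower in line 365 (median 0.07, and 0.43 in line 167). In the PI3K list 9 of 31 were higher (29.0%) and 7 lower (22.6%), not far from the 18.6% and 18.7% of all genes, with the catalytic subunit gene Pik3cb at 9.51 and 8.35 in line 365 and 8.40 and 8.38 in line 167. The cytokine signalling inhibitor gene Socs3, which was chosen after its values were seen, gave 8.78 and 7.02 in line 365 and 7.17 and 7.54 in line 167. Of the Polycomb and trithorax list, Cbx7 was the 1 gene past 2-fold, at 7.75 and 6.47 in line 365 and 5.72 and 5.99 in line 167.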

How the data were processed

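The labels' protocols give a whole-transcript assay with biotin-labelled sense targets for all 4 arrays. The deposited values are log2 signals per probe set, for which the submitters' processing notes name RMA and Affymetrix Expression Console. RMA brings arrays to one distribution, so a change in total RNA per cell cannot show. The sources used here give no version and no genome build.

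Of 35556 probe sets 21789 have 1 gene symbol in the platform annotation, 1621 have several and 12146 are not listed there. They stand for 19938 genes. For 999 genes with several probe sets, the one of highest mean over the 4 arrays was used. Changes were differences of deposited log2 values, computed in Python 3.11.15 with pandas 2.3.3. Quantile and cyclic loess alternatives used limma 3.58.1 in R 4.3.3. Counting was tested on simulated data. Lists were described by counts and medians, without a test. The members and lists were chosen with earlier results of these data known. Named genes were the 15 largest changes each way, the 15 largest each way of line 365 alone, the 8 largest differences from line 167, up to 5 leading members of each list, Smarcb1 and the MYC network. Others, such as Lox, Thbs1 and Npm1, were chosen after their values were seen. Predicted, receptor-family and small RNA genes were passed over in rankings.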

Additional observations from a re-analysis of the deposited data

Results flagged for a closer look

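Single genes were at least 2-fold changed in opposite directions in the 2 lines, which is what set them apart, and the difference was not tested. Lower in line 365 and higher in line 167 were P3h2 (-2.30 and 2.08), Esm1 (-2.21 and 1.34) and the growth factor gene Tgfb2 (-1.35 and 1.12, with 7.37 and 6.02 in line 365 and 4.41 and 5.53 in line 167). Higher in line 365 and lower in line 167 were the LIM homeobox gene Lhx9 (1.12 and -1.13), the potassium channel gene Kcnh5 (1.23 and -1.61) and the adaptor subunit gene Ap1s3 (1.46 and -1.15). Gene lists of 10 or more genes whose medians had opposite signs in the 2 lines and lay at least 0.3 apart were G2/M and mitosis (0.12 in line 365 and -0.32 in line 167), CDK inhibitors, pocket proteins and D cyclins (0.21 and -0.16) and immediate early genes (-0.25 and 0.12), again untested.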

How the results depend on the processing

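No paired analysis was possible because each line and vector has 1 array and no result comes from a test. Counts followed the fold limit by construction: at 1.5-fold 906 genes were higher and 663 lower in line 365, and at 3-fold 160 and 41. Of the ribosome biogenesis genes 27 were lower and 1 higher at 1.5-fold. With a limit of 1 on the line 167 change, 211 genes were higher in line 365 alone. Quantile normalization, median centring, cyclic loess, averaging of probe sets and 3 other filters left the 2-fold and line 365 counts within 1.5 times their values, and the share of ribosome biogenesis genes at least 1.2-fold lower ran from 62.4% to 67.9%. Their median ran from -0.35 to -0.41, beside -0.04 to 0.01 for all genes. No gene chosen by the naming rule changed sign where it differed by more than 0.1. List medians within 0.1 of 0 did, and with the 50th percentile filter those of ERK targets and of chemokines were -0.08 and -0.12. The number of arrays, 1 a line and vector, limits the precision of every value.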

Other observations

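Caveolae are small pits of the plasma membrane built from caveolins and cavins, and some of their genes, singled out after the values were seen, were among the largest differences of line 365. Cav1 gave 5.37 and 9.41 in line 365, 16.4-fold higher, against 8.13 and 9.81 in line 167. Cav2 gave 4.54 and 8.17, against 6.04 and 7.85. Line 365 thus started lower and ended within 0.5 (log2) of line 167 for both caveolins. Cavin2 gave 4.58 and 6.95 in line 365 and 3.83 and 3.86 in line 167. Cavin1, at 10.13 and 10.56, and Cavin3, at 9.95 and 10.56, were already high and differed by 0.44 and 0.61, and the muscle genes Cav3 (0.15) and Cavin4 (-0.06) stayed near the low-value limit.

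WNT genes of line 365 that line 167 did not share went both ways. The ligand gene Wnt2 gave 4.88 and 6.65 in line 365 and 5.15 and 5.19 in line 167. The secreted WNT inhibitor gene Wif1 gave 5.87 and 4.37 in line 365 and 4.51 and 4.48 in line 167. Of other Sfrp genes, Sfrp1 differed by 0.39 in line 365 and 1.18 in line 167 and Sfrp2 by -0.08 and 3.28, so the decrease of Sfrp4 was not met in them.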
